A study of Mus musculus with 3 samples.

Results

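The expression of 10 genes of the Wnt pathway was followed through an in vitro differentiation of mouse testis cells toward Leydig cells, in which the salt LiCl2 was added to the medium part of the way through. The 10 genes were chosen by name and looked up among the 24698 genes of the merged count table. They are the feedback targets Axin2, Nkd1 and Nkd2, the transcription factors Lef1, Tcf7 and Tcf7l2, and the secreted modulators Sfrp1, Sfrp2, Dkk2 and Dkk3. A row was found for 9 of them, and Dkk2 was not analysed here.

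Sca1+/cKit- cells were sorted from testes of adult C57BL/6 mice aged 8 to 12 weeks and cultured on Matrigel at 100000 cells per well. They recovered for 18 h in 10% serum and were expanded for 3 days with PdgfAA, PdgfBB and Fgf2 (10 ng/ml each) and 0.5 uM SAG, an agonist of Hedgehog signalling. The day 4 library was taken from this phase, before LiCl2. The differentiation medium kept all 4 factors and added 5 mM LiCl2 together with 10 uM DAPT, an inhibitor of the gamma-secretase that activates Notch receptors. The day 7 library had spent 3 days and the day 14 library 10 days in it. Each day is 1 Drop-seq library, so LiCl2, DAPT, time in culture and the library cannot be told apart. Cells of a library are not replicates. For that reason no test is given, and every interval is at 95% and covers counting error only.

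Wnt ligands bind Frizzled and Lrp receptors at the cell surface, which stops a destruction complex built around Axin, Apc and the kinase Gsk3 from degrading beta-catenin. Stabilised beta-catenin enters the nucleus, binds factors of the TCF/LEF family at their DNA sites and turns on target genes, several of which encode inhibitors that dampen the signal again. Lithium inhibits Gsk3 and is widely used to raise beta-catenin without a ligand. In the testis interstitium, Leydig cells are the steroid-producing cells, and myofibroblast states are marked by contractile and matrix genes.

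The TCF/LEF core was searched for as CTTTGA on both strands (TCAAAG is its reverse complement) in the promoter windows that RefSeq (GRCm38.p6) gives for the 10 genes, each of 250 bases before a start and 50 after it. Windows were found for 8 of the 10 genes, 13 windows in all, and none for Sfrp1 and Dkk3. A match stood in 1 of the 13 windows, the one before an internal start of Lef1. Over all 32851 windows the share with a match was 16.0%, and 3.73% held the longer CTTTGAT, which no window of the 10 genes held. The 250 upstream bases are shown for Axin2 and Nkd1, the targets that were lower after the medium change, and for the Lef1 window with the matches, which are in capitals. The Axin2 window lies just upstream of the gene, outside any exon (chr11:108920099-108920348, plus strand). The Nkd1 window (chr8:88527383-88527632, plus strand) and the Lef1 window (chr3:131156044-131156293, plus strand) lie within introns of their own genes in GENCODE M21.
Axin2: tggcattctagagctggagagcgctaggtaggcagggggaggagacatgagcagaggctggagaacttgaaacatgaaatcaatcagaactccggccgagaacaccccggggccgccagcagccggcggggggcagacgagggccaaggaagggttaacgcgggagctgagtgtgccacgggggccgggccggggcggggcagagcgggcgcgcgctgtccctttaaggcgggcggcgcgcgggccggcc
Nkd1: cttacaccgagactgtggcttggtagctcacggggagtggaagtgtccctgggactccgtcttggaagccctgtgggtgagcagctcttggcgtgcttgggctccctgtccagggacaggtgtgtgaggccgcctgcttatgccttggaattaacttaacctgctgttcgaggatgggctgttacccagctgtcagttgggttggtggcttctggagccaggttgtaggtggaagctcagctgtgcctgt
Lef1: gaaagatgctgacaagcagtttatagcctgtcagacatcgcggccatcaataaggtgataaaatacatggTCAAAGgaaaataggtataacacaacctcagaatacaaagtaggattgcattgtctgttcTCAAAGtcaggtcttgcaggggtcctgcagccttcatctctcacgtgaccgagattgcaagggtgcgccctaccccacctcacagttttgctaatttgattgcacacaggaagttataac
The Axin2 and Nkd1 windows hold no capitals because no match was found in them. A match is a stretch of letters and says nothing of binding, and its absence from a short window says only that these letters are not there.

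The libraries held 2980, 2171 and 973 cells in order of day after the study's filter, with 12677110, 11627440 and 5324400 UMIs (unique molecular identifiers, each counting 1 captured transcript). Median depth was 2886.5, 3285 and 3272 UMIs per cell. No cell barcode was shared between libraries. Levels are given as CPM, the UMIs of a gene in a set of cells per 1000000 UMIs of those cells. The 12 Leydig marker genes, all read on every day, summed to 464, 660 and 13557 CPM in order of day. Lists of markers of other testis cells were uneven, and on day 7 the Sertoli list came close to the Leydig list. The 10 macrophage genes summed to 11.4, 27.7 and 219 CPM over the 3 days (9, 8 and 9 genes read, with C1qa at 0 on days 4 and 7 and C1qb at 0 on day 14), and the 10 germ cell genes to 118, 19.4 and 52.8 CPM (9, 7 and 9 read). The 10 endothelial genes summed to 90.5, 120 and 25.2 CPM (10, 6 and 4 read, with Tie1, Cldn5 and Esam at 0 on days 7 and 14), and the 8 pericyte genes to 168, 172 and 19.3 CPM. The 9 Sertoli genes with a row summed to 156, 552 and 705 CPM, with Amh at 0 throughout and Dhh and Rhox5 at 0 on day 14. They include Clu, which is also on the list of matrix-producing myofibroblasts used below. The part of these other cells in the results below was not tested.

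Calls follow a fixed rule, a level at least 2-fold apart with at least 50 UMIs in both groups together, and 0 counts were set to 3. Between day 4 and day 7, when LiCl2 and DAPT entered the medium, the feedback targets Axin2 and Nkd1 were lower and none of the 10 genes was called higher. Of the 8 genes with enough UMIs, 0 were called higher and 2 lower. Over all 11371 genes with enough UMIs, 3.56% were called higher and 3.08% lower. Between day 7 and day 14 the secreted modulators Sfrp1, Sfrp2 and Dkk3 and the factor Tcf7 were higher, and Nkd2 was lower. That is 4 genes higher and 1 lower of 7 with enough UMIs, beside 10.2% higher and 16.0% lower over 11007 genes. Day 14 against day 4 gave 3 higher (Tcf7, Sfrp1 and Sfrp2) and 2 lower (Axin2 and Nkd2) of 7, beside 13.6% higher and 17.0% lower over 10986 genes; the 3 comparisons share libraries. The median log2 ratio of all genes with enough UMIs was 0.10 for day 7 over day 4 and -0.17 for day 14 over day 7, and that of the described genes was -0.15 and 1.24. Centring the ratios on the median of all genes changed none of these calls.

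**Figure D1:**
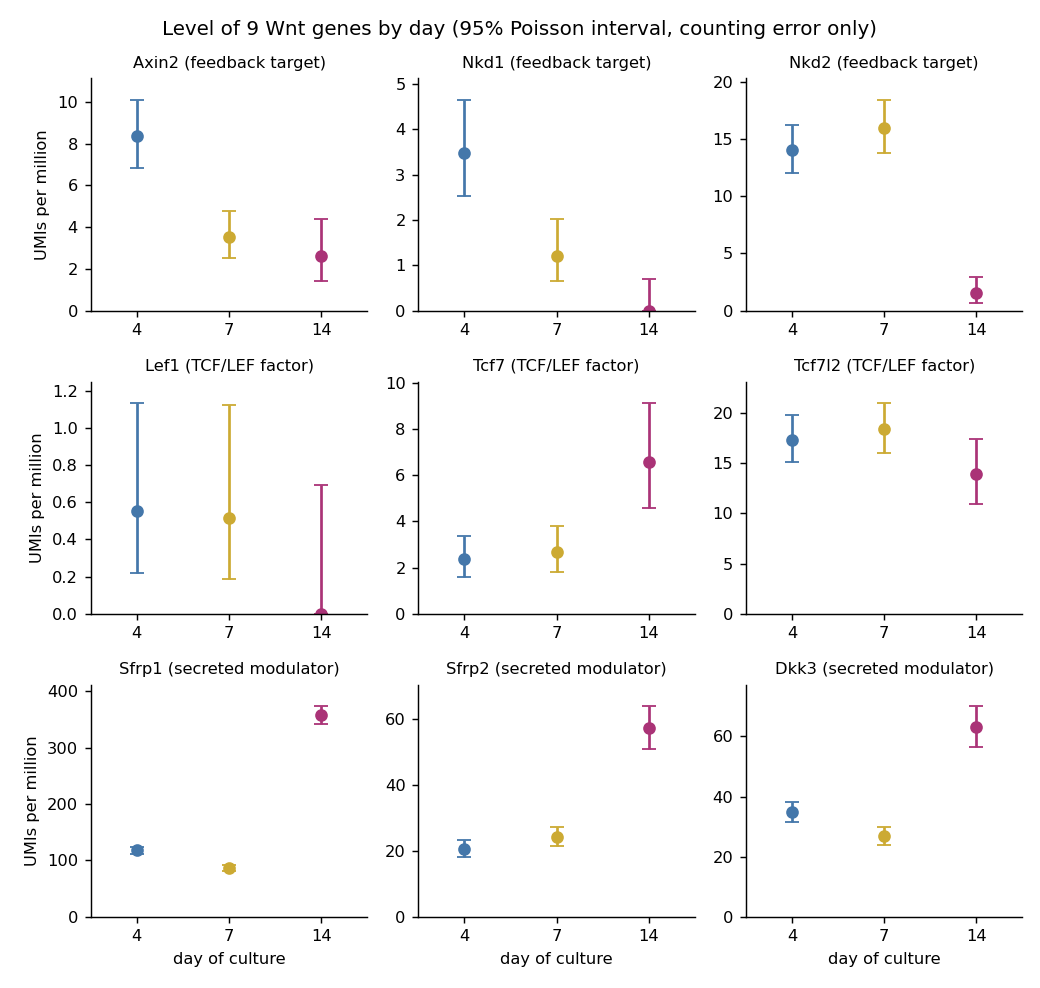
Level of each gene (CPM, vertical axis from 0, scale differing by panel) on days 4, 7 and 14; points are single libraries and bars the exact Poisson 95% interval. Axin2 and Nkd1 step down after day 4, Nkd2 stands at 14.0 and 15.997 on days 4 and 7 and at 1.503 on day 14, and Sfrp1, Sfrp2 and Dkk3 stand highest on day 14.

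Axin2 encodes a scaffold of the destruction complex and is the most widely used readout of beta-catenin activity (chromosome 11, 108920349 to 108950783 on the plus strand, protein coding; positions of all genes are from GENCODE M21 on GRCm38). It was read at 106 UMIs before the medium change, at 41 on day 7 and at 14 on day 14. In CPM this was 8.36 (Poisson interval 6.85–10.1), 3.53 (2.53–4.78) and 2.63 (1.44–4.41). The day 4 interval stood clear of the others, which overlapped. Day 7 was 2.37-fold lower than day 4 (interval of the ratio 1.64–3.49), and day 14 was 1.34-fold lower than day 7 with an interval (0.716–2.66) that included no difference. With each cell thinned to 1500 UMIs the day 7 over day 4 log2 ratio was -1.45 beside -1.25, on 36 UMIs, too few for a call. No cell held more than 2 Axin2 UMIs.

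Nkd1 and Nkd2 encode Naked cuticle proteins, which bind Dishevelled and dampen Wnt signalling. Nkd1 (chromosome 8, 88521354 to 88594884, plus strand) gave 44 UMIs before the medium change, 14 on day 7 and none at the end. Its level was 3.47 CPM (2.52–4.66) on day 4 and 1.204 CPM (0.658–2.02) on day 7, a 2.88-fold lower level (1.55–5.70). After thinning to 1500 UMIs the log2 ratio was -1.11 beside -1.53, on 15 UMIs, again too few for a call. A count of 0 on day 14 allows up to 0.563 CPM, at least 2.14-fold lower than day 7 with too few UMIs for a call.

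Nkd2 (chromosome 13, 73818534 to 73847631, minus strand) followed another course. Its 3 libraries held 178, 186 and 8 UMIs, or 14.0 (12.1–16.3), 15.997 (13.8–18.5) and 1.503 CPM (0.649–2.96). Days 4 and 7 overlapped, and day 14 stood below both. Day 14 was 10.6-fold lower than day 7 (5.29–25.03). With each cell thinned to 1500 UMIs the log2 ratio was -1.51 in place of -3.41, on 29 UMIs, too few for a call.

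The TCF/LEF factors bind the sites through which beta-catenin acts. Lef1 (chromosome 3, 131110471 to 131224356, plus strand), itself a common target, was barely read: 7, 6 and 0 UMIs in order of day. Its levels of 0.552 and 0.516 CPM on days 4 and 7 lie under the 0.563 CPM that a count of 0 allows on day 14, and any difference is below what this depth can show. Of these 13 UMIs, 3 came from a small cluster led by Lyz2, Ctss and Tnp1, genes of macrophages and sperm.

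Tcf7 (chromosome 11, 52252371 to 52283014, minus strand), which encodes TCF1, was read at 30, 31 and 35 UMIs in the 3 libraries, or 2.37 (1.60–3.38), 2.67 (1.81–3.78) and 6.57 CPM (4.58–9.14). Days 4 and 7 overlapped and day 14 stood above them. Day 14 was 2.47-fold higher than day 7 (1.48–4.13), a call that was lost when every cell had equal weight (log2 ratio 0.59 against 1.30) and that was not made after thinning to 1500 UMIs (0.94, on 15 UMIs). The median depth was 5584 UMIs in the Leydig-like cells that held 31 of the 35 UMIs and 2203 in the differentiating Leydig-like cells, and the part of depth in this call was not tested.

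Tcf7l2 (chromosome 19, 55741820 to 55933654, plus strand) encodes TCF4, the family member best known from gut and metabolism. It gave 220, 214 and 74 UMIs, or 17.4 (15.1–19.8), 18.4 (16.02–21.0) and 13.9 CPM (10.9–17.4). All 3 intervals overlapped, and no comparison between days was called. Day 14 was 1.32-fold lower than day 7 (1.01–1.75).

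Sfrp1 and Sfrp2 encode secreted Frizzled-related proteins, which bind Wnt ligands outside the cell. Sfrp1 (chromosome 8, 23411502 to 23449632, plus strand) had the most UMIs of the 9 genes read, 1490, 999 and 1905 in order of day. Its level was 118 CPM (112–124), then 85.9 CPM (80.7–91.4), then 358 CPM (342–374). None of the 3 intervals overlapped. Day 7 was 1.37-fold lower than day 4 (1.26–1.48), and day 14 was 4.16-fold higher than day 7 (3.86–4.50). With each cell thinned to 1500 UMIs the log2 ratio of day 7 over day 4 shrank to -0.116 from -0.452. That of day 14 over day 7 was 1.65 beside 2.06.

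Sfrp2 (chromosome 3, 83766321 to 83774316, plus strand) was read at 260, 281 and 304 UMIs, or 20.5 (18.1–23.2), 24.2 (21.4–27.2) and 57.1 CPM (50.9–63.9). Days 4 and 7 overlapped and day 14 was 2.36-fold higher than day 7 (2.002–2.79). A single cell of day 4 held 32 of that day's 260 UMIs. It belonged to the Lyz2-led cluster, and without that cluster the day 14 over day 4 log2 ratio was 1.75 instead of 1.48.

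Dkk3 (chromosome 7, 112116017 to 112159057, minus strand) belongs to the Dickkopf family, whose classic members block the Lrp co-receptors, although Dkk3 itself is an atypical member. It was read at 440, 311 and 336 UMIs, or 34.7 (31.5–38.1), 26.7 (23.9–29.9) and 63.1 CPM (56.5–70.2). No 2 of the intervals overlapped. Day 7 was 1.30-fold lower than day 4 (1.12–1.51) and day 14 was 2.36-fold higher than day 7 (2.02–2.76). The lower level of day 7 did not hold after thinning. Its log2 ratio over day 4 was -0.118 at 1500 UMIs per cell and 0.138 at 1000, beside -0.376. Day 14 was 1.82-fold above day 4 (1.57–2.10), short of the 2-fold rule, which it passed after thinning to 1500 UMIs (log2 ratio 1.17 beside 0.86).

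The share of cells in which a gene was read was set beside its level. With each cell thinned to 1500 UMIs, which left out shallower cells, an Sfrp1 UMI was seen in 13.5% of cells on day 4 (Clopper-Pearson interval 12.1–14.96%), 9.59% on day 7 (8.24–11.1%) and 32.5% on day 14 (29.2–35.9%). Without thinning these shares were 24.5%, 16.1% and 54.8%. The thinned share of Dkk3 was 4.80%, 4.25% and 9.19%, and that of Sfrp2 was 2.02%, 2.47% and 6.55%. For both genes the day 14 interval stood above those of the other days. Axin2 was seen in 1.17% (0.764–1.71%), 0.459% (0.198–0.903%) and 0.504% (0.137–1.28%) of thinned cells, and the intervals overlapped. Nkd2 was seen in 1.71% (1.21–2.33%), 1.38% (0.885–2.04%) and 0.504% (0.137–1.28%). These intervals overlapped as well, although its level on day 14 stood clear of both earlier days. The 67 cells of the Lyz2-led cluster, which hold macrophage and sperm transcripts at a median of 2367 UMIs, were taken as a gauge of free RNA. Without thinning they showed Sfrp2 in 13.4%, Sfrp1 and Tcf7l2 in 7.46% each, Lef1 and Tcf7 in 4.48% each and Dkk3 in 2.99%. Axin2, Nkd1 and Nkd2 were seen in 0 of 67 cells, which allows a share of up to 4.48%. That cluster is itself mixed and is only a rough gauge. The largest thinned share was 0.494% for Nkd1 and 0.180% for Lef1, both on day 4.

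**Figure D2:**
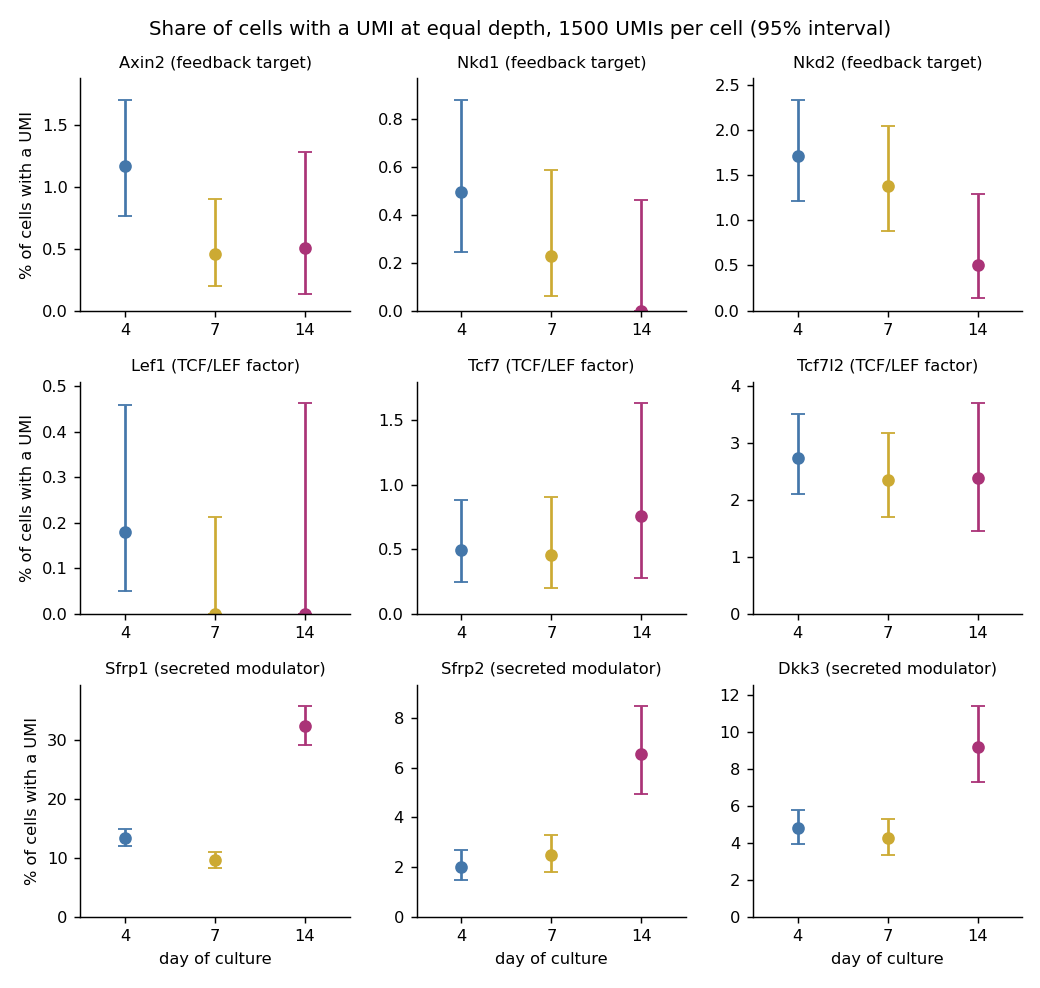
Share of cells with at least 1 UMI of each gene after thinning every cell to 1500 UMIs (percent of cells, vertical axis from 0, scale differing by panel) by day; points are single libraries and bars the exact Clopper-Pearson 95% interval. The shares of Sfrp1, Sfrp2 and Dkk3 are highest on day 14, at 32.5%, 6.55% and 9.19%.

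Cell states were found by clustering the 6124 cells without the Wnt and Notch genes, so no gene described here helped to define them. Of 12 clusters, 10 met the rule for a name. Differentiating myofibroblast-like cells made up 74.4% of day 4 and 3.04% of day 7, ECM (extracellular matrix) myofibroblast-like cells 59.5% of day 7, and proliferating-like cells 19.6% of day 4 and 21.6% of day 7. Interferon genes led 2 of the 3 differentiating myofibroblast-like clusters. Day 14 held 54.7% differentiating Leydig-like and 42.4% Leydig-like cells. A cluster led by the matrix genes Eln, Entpd2 and Mfap2 met no name and held 95, 279 and 10 cells in order of day. Its closest marker list was that of interstitial progenitors (median log2 ratio 1.01), followed by differentiating Leydig cells (0.65). At clustering resolutions 0.4 and 1.2 and with 10 or 30 principal components, the cluster that took most of its cells was named differentiating Leydig-like. It stayed unnamed with the Wnt and Notch genes kept and with high doublet scores removed. The other unnamed cluster was the Lyz2-led cluster. The mix of states differed between days, so a difference between days in summed levels is also a difference in which states were sampled. At least 50 cells were found in 9 groups of a state within a day.

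**Figure D3:**
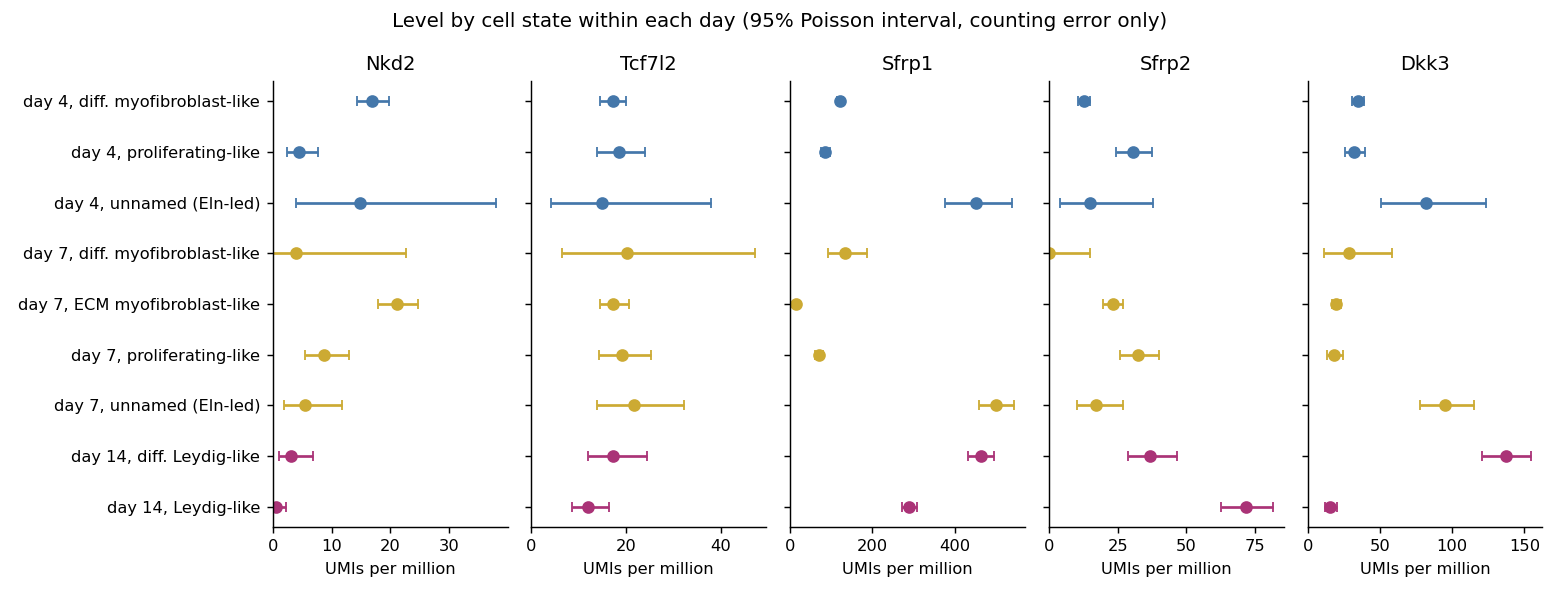
Level (CPM, horizontal axis from 0, scale differing by gene) of Nkd2, Tcf7l2, Sfrp1, Sfrp2 and Dkk3 in the 9 groups of cell state and day with at least 50 cells, coloured by day, with exact Poisson 95% intervals. Sfrp1 stands highest in the Eln-led cluster and in both Leydig states, and Dkk3 separates the 2 Leydig states of day 14 at 137 and 15.7.

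Sfrp1 spanned a wide range of levels over the states. Its level was 500 CPM (459–544) in the Eln-led cluster of day 7, 463 CPM (433–495) in differentiating Leydig-like cells and 452 CPM (376–540) in the Eln-led cluster of day 4. These 3 overlapped. Leydig-like cells followed at 290 CPM (272–309), clear of the groups on either side. Then came differentiating myofibroblast-like cells of day 7 at 134 CPM (92.0–188) and of day 4 at 120 CPM (113–127), which overlapped. Proliferating-like cells held 85.1 CPM (74.8–96.4) on day 4 and 69.3 CPM (59.6–80.1) on day 7, which also overlapped, the day 4 value also overlapping the small day 7 group of differentiating myofibroblast-like cells, and ECM myofibroblast-like cells the least, at 14.8 CPM (12.2–17.9).

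Within day 7 the Eln-led cluster thus stood 33.7-fold above the ECM myofibroblast-like cells in Sfrp1 (27.4–41.8). It made up 12.9% of the cells of that day and held 55.5% of their Sfrp1 UMIs, 554 of 999. The ECM myofibroblast-like cells made up 59.5% of the cells and held 11.01%, 110 UMIs. At 1500 UMIs per cell, 45.6% of Eln-led cells and 2.56% of ECM myofibroblast-like cells had an Sfrp1 UMI. Sfrp1 was among the 10 leading genes of the Eln-led cluster although it had been left out of the clustering. On day 14 the UMIs were split almost evenly, 941 in Leydig-like and 882 in differentiating Leydig-like cells.

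Dkk3 was highest in differentiating Leydig-like cells at 137 CPM (121–155). The Eln-led cluster came next, at 94.8 CPM (77.5–115) on day 7 and 81.6 CPM (51.1–123) on day 4, which overlapped each other, the day 4 value also reaching the differentiating Leydig-like cells. Both myofibroblast states, the proliferating-like cells and the Leydig-like cells lay between 15.7 and 34.7 CPM. In Leydig-like cells of day 14 Dkk3 was 8.72-fold lower than in differentiating Leydig-like cells (6.44–12.0). The latter held 261 of the 336 Dkk3 UMIs of day 14, and at 1500 UMIs per cell 15.5% of them had a Dkk3 UMI against 1.76% of Leydig-like cells.

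Sfrp2 showed the reverse order on day 14, at 71.5 CPM (62.6–81.3) in Leydig-like and 36.7 CPM (28.6–46.4) in differentiating Leydig-like cells. The ratio of 1.95 (1.48–2.58) was just short of the 2-fold rule and passed it under resolution 0.4 and under 10 or 30 principal components. Proliferating-like cells had 30.6 CPM (24.5–37.6) on day 4 and 32.4 CPM (25.9–40.0) on day 7, which overlapped with each other and with the differentiating Leydig-like cells. ECM myofibroblast-like cells had 23.2 CPM (19.9–26.9). Inside that state the level split between clusters, with 63.5 CPM (51.8–77.0) in the cluster led by Grem1, Hmga2 and Postn and 12.2 CPM (9.51–15.4) in the cluster led by Mgll, Anxa8 and Gadd45a. Another, small cluster of that state, led by Kcnq1ot1 and Meg3, made up the rest. The first had a median of 1930 UMIs per cell and the second 8764.5. At 1500 UMIs per cell an Sfrp2 UMI was seen in 3.89% of cells of the first (2.32–6.07%) and 1.40% of the second (0.607–2.74%), intervals that overlapped, and at 1000 UMIs in 3.16% (1.91–4.88%) and 0.701% (0.191–1.78%), which did not. The level of the first came from 36 of its 683 cells, and 1 of them held 17 of the 102 UMIs.

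Nkd2 was highest in the ECM myofibroblast-like cells of day 7 at 21.0 CPM (17.9–24.6) and the differentiating myofibroblast-like cells of day 4 at 16.8 CPM (14.3–19.7), whose intervals overlapped. Those states held 83.9% and 87.6% of the Nkd2 UMIs of their days, beside 63.8% and 73.1% of the UMIs of all genes. Proliferating-like cells had 4.51 CPM (2.40–7.72) before and 8.66 CPM (5.49–13.0) after the medium change. The Eln-led cluster had 14.8 CPM (4.04–38.0) and 5.42 CPM (1.99–11.8) before and after it, from 4 and 6 UMIs. Differentiating myofibroblast-like cells of day 7 had 4.05 CPM (0.102–22.6) from 1 UMI. On day 14 both Leydig states were low, at 3.15 CPM (1.16–6.86) and 0.616 CPM (0.0746–2.23). The day 14 library held hardly any cells of the states in which Nkd2 was read on the earlier days. The part of the mix of states in its lower level on day 14 was not tested.

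Axin2 was read at 8.96 CPM (7.13–11.1) in differentiating myofibroblast-like and 7.29 CPM (4.51–11.1) in proliferating-like cells of day 4, which overlapped. On day 7 it was 3.64 CPM (2.40–5.30) in ECM myofibroblast-like cells, 1.13 CPM (0.233–3.30) in proliferating-like cells and 7.22 CPM (3.12–14.2) in the Eln-led cluster. In the 66 differentiating myofibroblast-like cells of day 7 it was 8.10 CPM (0.980–29.2) from 2 UMIs. This lies under the 12.1 CPM that a count of 0 allows there, too few UMIs to set against the same state on day 4. On day 14 it was 5.25 CPM (2.52–9.65) in differentiating Leydig-like and 1.23 CPM (0.336–3.16) in Leydig-like cells, from 10 and 4 UMIs. Nkd1 lay between 0 and 7.42 CPM in every group, the highest value resting on 2 UMIs.

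Tcf7 UMIs of day 14 came mostly from Leydig-like cells, 31 of 35, at 9.55 CPM (6.49–13.6) against 2.10 CPM (0.572–5.38) in differentiating Leydig-like cells. In the other groups Tcf7 was between 0 and 7.42 CPM, with at most 18 UMIs in a group. Tcf7l2 was the most even of the genes, between 12.0 and 21.7 CPM in all 9 groups with overlapping intervals, and no comparison between states called it. The 67 cells of the Lyz2-led cluster, the rough gauge of free RNA, held Tcf7l2 at 20.7 CPM (6.72–48.3) from 5 UMIs. The part of free RNA in its even level was not tested.

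Counts of calls between states were as follows. On day 4, proliferating-like against differentiating myofibroblast-like cells gave Sfrp2 higher (2.42-fold, 1.81–3.22) and Nkd2 lower (3.73-fold, 2.12–7.16), 1 each, beside 5.65% and 1.79% of 9942 genes. The Eln-led cluster of day 4 against differentiating myofibroblast-like cells gave Sfrp1 (3.76-fold, 3.10–4.54) and Dkk3 (2.35-fold, 1.45–3.62) higher and none lower of 6, beside 11.2% and 14.3% of 9271 genes, and Nkd2 stood there at 14.8 and 16.8 CPM. On day 7, ECM myofibroblast-like against proliferating-like cells gave Nkd2 higher (2.43-fold, 1.56–3.94) and Sfrp1 lower (4.67-fold, 3.67–5.97), beside 2.52% and 5.87% of 9768 genes. The Eln-led cluster against ECM myofibroblast-like cells gave Sfrp1 and Dkk3 higher and Nkd2 lower (3.88-fold, 1.75–10.7), 2 and 1, beside 4.74% and 6.34% of 9307 genes. Dkk3 was 4.78-fold higher there (3.69–6.18). On day 14, Leydig-like against differentiating Leydig-like cells gave none higher and Dkk3 lower, beside 3.54% and 4.83% of 7984 genes.

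A comparison within a state across the medium change was possible for 3 groups of cells. The proliferating-like state had 583 cells on day 4 and 470 on day 7. Within it 4 of the 10 genes had enough UMIs (Tcf7l2, Sfrp1, Sfrp2 and Dkk3) and none was called, beside 2.42% higher and 2.21% lower of 8399 genes. Axin2 had 21 and then 3 UMIs, 7.29 and 1.13 CPM, a ratio of 6.45-fold lower (1.93–33.8) with too few UMIs for a call. Nkd1 had 8 and then 3 UMIs. Dkk3 was 1.75-fold lower (1.23–2.53), Sfrp1 1.23-fold lower (1.01–1.49), and Tcf7l2 and Sfrp2 had ratios of 1.04 (0.696–1.56) and 1.06 (0.778–1.44). Differentiating myofibroblast-like cells numbered 2217 on day 4 and 66 on day 7. Of 6 genes with enough UMIs there, none was called higher and 1 lower, beside 6.80% and 7.75% of 9237 genes. That gene was Nkd2, at 156 and 1 UMIs, a ratio of 4.16-fold lower (0.736–165) whose interval included no difference. Axin2 stood at 8.96 and 8.10 CPM in these cells, 1.11-fold lower (0.297–9.29). Sfrp1 and Tcf7l2 had ratios of 1.11 (0.761–1.57) and 1.18 (0.378–2.81). In the Eln-led cluster 2 genes had enough UMIs and none was called, beside 7.41% higher and 3.28% lower of 4293 genes. The day 7 over day 4 ratio was 1.11 for Sfrp1 (0.907–1.36) and 1.16 for Dkk3 (0.729–1.93), and Axin2 stood at 2 and 8 UMIs, 7.42 and 7.22 CPM. All of these intervals in the Eln-led cluster included no difference.

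Other parts of the pathway were read from lists chosen by function. The shares of all genes to set beside the counts between days below are 3.56% higher and 3.08% lower for day 7 over day 4. For day 14 over day 7 they are 10.2% higher and 16.0% lower. Among 19 Wnt ligands, 15 had a row. Of these, 6 had enough UMIs for day 7 over day 4 and 0 were higher and 1 lower, and 4 for day 14 over day 7 with 1 higher and 2 lower. The ligands with the highest levels were Wnt5a, a ligand best known for acting without beta-catenin, and Wnt6. Wnt6 went from 17.0 to 10.8 to 84.1 CPM, 7.83-fold higher on day 14 than on day 7 (6.41–9.62), and Wnt5a from 65.9 to 73.2 to 46.8 CPM. Wnt2 stood at 8.20, 4.47 and 0 CPM, and Wnt11 at 8.76, 11.4 and 0.188 CPM. Wnt5b had 41, 16 and 11 UMIs and was 2.35-fold lower on day 7 than on day 4 (1.30–4.49). On day 7 Wnt6 stood at 41.5 CPM in the Eln-led cluster and 4.45 CPM in ECM myofibroblast-like cells.

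Wls, the carrier that all secreted Wnts need, stood at 582, 803 and 421 CPM, and Porcn, the enzyme that lipid-modifies them, at 6.47, 4.30 and 11.6 CPM, 2.71-fold higher on day 14 than on day 7 (1.84–4.01). Of the 7 genes for secretion and R-spondins, 2 had enough UMIs. Of 18 receptor genes, 0 of 11 were called on day 7 over day 4 and 2 of 10 were lower on day 14 than on day 7. Those were Ryk, at 162, 120 and 53.7 CPM, and Fzd7, at 7.49, 6.88 and 2.63 CPM. Fzd2 stood at 75.7, 46.7 and 47.5 CPM.

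Among 13 other genes of Wnt inhibition, 10 had a row, and the secreted Sfrp relatives Sfrp4 and Frzb were higher on day 14. Sfrp4 had 2, 4 and 168 UMIs, or 0.158, 0.344 and 31.6 CPM, and a single cell held 39 of the 168. Frzb, also called Sfrp3, had 23.7, 35.6 and 103 CPM, 2.89-fold higher on day 14 than on day 7 (2.54–3.29). They were the 2 called of 3 genes with enough UMIs, and none of 2 was called on day 7 over day 4. On day 14 Sfrp4 was 3.07-fold higher in Leydig-like than in differentiating Leydig-like cells (2.02–4.81), and Frzb was at 98.3 and 114 CPM. On day 7 Frzb was at 89.4 CPM in the Eln-led cluster and 29.5 CPM in ECM myofibroblast-like cells.

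Of 11 genes of the destruction complex and Dishevelled, 10 had enough UMIs in each comparison, with none called on day 7 over day 4 and 1 higher on day 14 over day 7. That gene was Amer1, a membrane anchor of the complex, at 27.9, 23.0 and 67.4 CPM. Gsk3b, the kinase that lithium inhibits, stood at 147, 134 and 119 CPM, and Csnk1a1, the priming kinase, at 526, 543 and 273 CPM. Of 13 genes for beta-catenin and its nuclear partners, 1 of 12 was lower on day 7 than on day 4 (Tle4, a corepressor, 13.3 to 4.04 CPM). On day 14 over day 7, 2 of 13 were higher and 1 lower. Tle2 stood at 1.104, 2.06 and 12.8 CPM, Pygo1 at 9.15, 12.0 and 24.98 CPM, and Tcf7l1, the remaining TCF/LEF gene, at 18.7, 16.2 and 6.76 CPM. Ctnnb1, which encodes beta-catenin, stood at 296, 285 and 186 CPM, and Aes at 53.5, 82.6 and 158 CPM.

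Of 15 other commonly used Wnt target genes, 11 had a row and 8 had enough UMIs. None of the 8 was called on day 7 over day 4, with a median log2 ratio of 0.11 beside 0.10 over all genes. Within states the same step gave calls. In the Eln-led cluster 2 of 5 were higher, Wisp1 (148 to 412 CPM) and Cd44 (11.1 to 118 CPM, from 3 UMIs on day 4), and 2 lower, Myc (70.4 to 31.6 CPM) and Wisp2 (400.4 to 191 CPM). Over all 4293 genes with enough UMIs in that cluster, 7.41% were called higher and 3.28% lower. In proliferating-like cells 1 of 7 was lower, Wisp2 (129 to 57.2 CPM), beside 2.42% higher and 2.21% lower of 8399 genes. In differentiating myofibroblast-like cells none of 7 was called, beside 6.80% higher and 7.75% lower of 9237 genes. On day 14 over day 7, summed over cells, 0 were higher and 5 lower, beside 10.2% and 16.0% of 11007 genes. The median was -1.12 beside -0.17. The 5 were Ccnd1 (208, 307 and 75.7 CPM), which drives cell-cycle entry, Myc (48.3, 31.7 and 13.9 CPM), Wisp1 (448, 432 and 208 CPM), Cd44 (164, 238 and 13.9 CPM) and Fosl1 (21.0, 25.6 and 0.188 CPM). Over the same days the 12 proliferation markers summed to 1181, 1084 and 173 CPM, and their part in the lower Ccnd1 and Myc was not tested. Ccnd1 also differed within day 14, at 32.4 CPM in Leydig-like and 124 CPM in differentiating Leydig-like cells.

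DAPT entered together with LiCl2, and Notch target genes serve as the readout of its action. Of 6 genes, 5 had a row and 2 enough UMIs. Heyl stood at 60.8, 21.7 and 3.94 CPM and was called lower in both steps. Hes1 stood at 93.2, 54.0 and 29.9 CPM, 1.72-fold lower on day 7 than on day 4 (1.56–1.90). Axin2, Nkd1, Tle4, Wnt5b and Heyl were the genes of all these lists called lower at the medium change. LiCl2, DAPT, time in culture, the library and the mix of cell states cannot be told apart here.

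**Figure D4:**
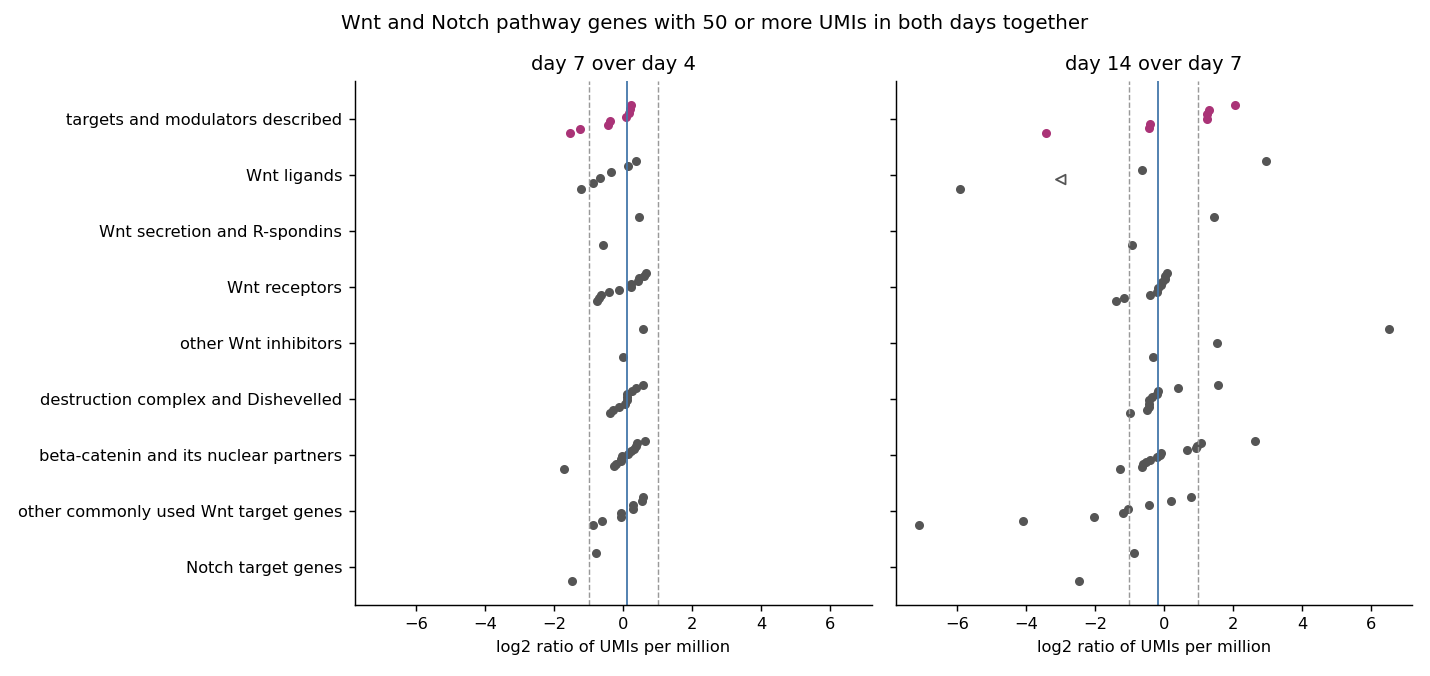
Log2 ratio of CPM for each gene with at least 50 UMIs in both days together, by functional list, for day 7 over day 4 and day 14 over day 7; the solid line is the median of all such genes, dashed lines mark 2-fold, and the open triangle is an upper bound from a count of 0. Few genes pass 2-fold at the medium change, and at day 14 over day 7 the described genes reach from -3.41 to 2.06.

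Co-detection in single cells was sparse. On day 14, at 1500 UMIs per cell, 25 of 258 cells with an Sfrp1 UMI also had an Sfrp2 UMI (9.69%, 6.37–14.0%) against 27 of 536 cells without (5.04%, 3.35–7.24%), intervals that overlapped. They also overlapped on day 4, at 2.33% (0.943–4.75%) against 1.97% (1.40–2.70%), and on day 7, at 1.80% (0.372–5.16%) against 2.54% (1.82–3.44%). On day 7, Dkk3 was seen in 10.8% of cells with an Sfrp1 UMI (6.51–16.5%) and 3.56% of cells without (2.70–4.59%). On day 4 these shares were 7.67% (4.92–11.3%) and 4.36% (3.49–5.37%), and on day 14 they were 11.6% (7.98–16.2%) and 8.02% (5.87–10.7%). The intervals of Dkk3 by Sfrp1 overlapped on days 4 and 14 and not on day 7. Of 52 cells of day 14 with an Sfrp2 UMI, 1 also had a Dkk3 UMI (1.92%, 0.0487–10.3%), against 72 of 742 cells without (9.70%, 7.67–12.1%). For this pair the shares were 2.33% (0.0589–12.3%) against 4.30% (3.38–5.37%) on day 7. On day 4 the order was reversed, at 13.3% (5.05–26.8%) against 4.63% (3.79–5.60%). The intervals overlapped on each day. Of 26 cells of day 4 with an Axin2 UMI, none had an Nkd1 UMI, against 11 of 2201 cells without (0.500%), too few to compare. These counts describe cells of a single library each.

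Across the 9 groups of state and day, the genes with the pattern most like that of Sfrp1 were Olfml1 (Pearson r of log2 CPM plus 10, 0.983), Clca3a1 (0.974) and 9430038I01Rik (0.9501), among 6195 genes with a mean of at least 20 CPM. For Dkk3 they were Pias1 (0.931), Nhs (0.929) and Dcn (0.925), the last the matrix proteoglycan decorin. For Sfrp2 they were Qars (0.954), Rnf5 (0.947) and Pfn2 (0.933), for Nkd2 Slc39a13 (0.917), Cryzl1 (0.910) and Mboat7 (0.905), and for Tcf7l2 Timp3 (0.931), Tbc1d8b (0.919) and Pkig (0.918). The 9 groups come from 3 libraries and differ in depth, and these values are descriptions chosen as the highest of many.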

How the data were processed

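Drop-seq libraries of days 4, 7 and 14 were used, 1 per day. Per the study's methods, the authors used STAR to map reads against GRCm38 and Drop-seq tools to count molecules, and the deposited values are raw UMI counts for each gene in each cell barcode. The annotation release was not given in the sources used here. The merged table, which the authors filtered to cells of 500 or more genes with no more than 10% of UMIs from mitochondrial genes, was read for these libraries, and its 495 columns that belong to no sample given here were not used. The 10 genes and all lists were chosen with earlier results of these data known.

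UMI counts were summed per day or per state and day and scaled to CPM. Intervals are exact Poisson for levels, exact conditional binomial for ratios and exact Clopper-Pearson for shares. A call needed at least a 2-fold difference and at least 50 UMIs in both groups together, and counts of 0 were set to 3 UMIs. No test was possible with 1 library per day. For shares, cells were thinned to 1500 UMIs with a fixed seed.

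Cells were clustered with Seurat 5.3.0 in R 4.3.3 (2000 variable genes, 20 principal components, 20 neighbours, Louvain resolution 0.8) without 99 genes of the Wnt and Notch lists. Clusters were named from marker lists where at least 3 markers were raised 1.5-fold and the leading genes did not go against the name. Names may differ from those of the study because the clusters were rebuilt. Doublets were not removed, since Scrublet in scanpy 1.11.5 called 0, 2 and 1 cells in the 3 libraries, and removing the highest 6% of scores was tried as an alternative. Intervals came from scipy 1.17.1 under Python 3.11.15, tables from pandas 2.3.3 and numpy 2.4.6, and plots from matplotlib 3.10.9. The calling step was tested on simulated data.

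Genes named beyond the 10 were those called between consecutive days and the 2 with the highest level in each of 8 lists: Wnt ligands, secretion and R-spondins, receptors, other inhibitors, destruction complex and Dishevelled, beta-catenin and its partners, other Wnt targets, and Notch targets. Genes of similar pattern were the 3 with the highest correlation over state and day groups. Alternatives were other cell filters, equal weight per cell, thinning, other scalings, a minimum of 20 UMIs, other clustering settings and removal of high doublet scores. Dkk2 was not analysed here.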

Additional observations from a re-analysis of the deposited data

How the results depend on the processing

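Each day had 1 library, so no alternative could leave out a replicate, and counting error is the only error given. No paired analysis was possible because each day had 1 library. Of 158 counts of genes called over the alternatives, 144 stayed within 1.5 times their value. Of 727 single values, 613 moved by less than their counting interval, 113 were counted as moving further and 1 changed sign after being called. A ratio with a count of 0 has no interval, and any change in it was counted among the 113. An example is the log2 ratio of Nkd1 for day 14 over day 4, from -2.62293 to -2.62354 without mitochondrial and ribosomal protein genes. The 613 include the values under the minimum of 20 UMIs, which changes only the calls and cannot move a ratio. Thinning to 1500 or to 1000 UMIs per cell left 0 genes called lower for day 7 over day 4 (2 without thinning), day 14 over day 7 (1) and day 14 over day 4 (2), because thinning leaves fewer UMIs and Axin2, Nkd1 and Nkd2 then lie under the minimum of 50. The log2 ratio of Tcf7 for day 14 over day 7 turned from 1.30 to -0.0462 at 1000 UMIs per cell, on 13 UMIs. Equal weight per cell gave 2 genes lower in the Eln-led cluster than in ECM myofibroblast-like cells (Nkd2 and Sfrp2) in place of 1. For Leydig-like over differentiating Leydig-like cells, 1 gene (Sfrp2) was called higher in place of 0 at resolution 0.4 and with 10 or 30 principal components, and the cause was not tested. With the Wnt and Notch genes kept in the clustering, 2 genes (Axin2 and Nkd2) in place of 0 were lower in the Eln-led cluster than in differentiating myofibroblast-like cells on day 4. For differentiating myofibroblast-like cells of day 7 over day 4, the count of genes called lower was 0 with those genes kept, 2 with high doublet scores removed (Nkd2 and Sfrp2) and 3 with equal weight per cell (Axin2, Nkd2 and Tcf7l2) in place of 1, and the state held under 50 cells on day 7 at resolution 0.4 and with 10 or 30 principal components, which gave no value. At resolution 1.2 and with 30 principal components the Eln-led cluster held 12 and 11 cells on day 4, so its day 4 comparisons gave no value. At resolution 0.4 and with 10 principal components the cluster that took most Eln-led cells held 943 and 871 cells, most of them from other clusters, and the values given to the Eln-led cluster there are those of that larger cluster. With a minimum of 20 UMIs, 3 genes were lower on day 14 than on day 4, with Nkd1 added. Leaving out the Lyz2-led cluster, an alternative chosen after seeing the data, kept the calls between days and moved Sfrp2 for day 7 over day 4 from a log2 ratio of 0.24 to 0.51.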
